A study of Homo sapiens with 30 samples.

Results

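The regions described here were the promoters of 10 housekeeping genes, used as a positive control for H3K27ac, the acetylation of histone H3 that marks active promoters and enhancers. They were chosen by gene name and not by a measured value, although earlier results of these data were known when they were chosen. A promoter was the window of 2 kb either side of the hg19 transcription start given for the gene, and every peak that shared at least 1 bp with that window was counted. The 10 windows stand among 758589 non-overlapping windows of the same length, 4001 bp, on chromosomes 1 to 22 and X, which served as the background. No transcripts were measured, so the label housekeeping was not checked against expression, and the identity of the cell line was not checked against marker genes.

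The data were CUT&Tag peak lists of K562, an established human chronic myeloid leukaemia line, from 30 libraries of 500000 cells each. In CUT&Tag a transposase tethered to a chromatin-bound antibody inserts sequencing adapters into nearby DNA. Of these libraries, 25 used an H3K27ac antibody (Abcam-ab177178, Abcam-ab4729, Active Motif 39133 or Diagenode C15410196) and 5 used the H3K27me3 antibody CST9733. H3K27me3 is the methylation mark of Polycomb repression. The antibodies are called ab177178, ab4729, Active Motif, Diagenode and CST9733 below.

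The groups were as follows. With trichostatin A (TSA, an inhibitor of histone deacetylases), 4 H3K27ac libraries were made with SDS extraction and 15 PCR cycles. They used ab177178 at 1/100, ab4729 at 1/100 and Diagenode at 1/50 and at 1/100. The sources used here do not give the TSA dose or time. Without TSA, 6 libraries had SDS extraction and 15 cycles: the same 4 antibody conditions, Active Motif at 1/100 and CST9733 at 1/100. The other 20 libraries, all without TSA, combined column or SDS extraction with 13 or 11 cycles for each of the 5 antibodies, with Diagenode at 1/50 and the rest at 1/100. Their reads were downsampled to a common depth before peak calling, per the labels, which the 15-cycle lists were not said to be. Each condition had 1 library, and the labels do not say whether cultures were separate, so p-values below measure only the spread among conditions.

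Housekeeping genes supply functions that every cell needs, such as the cytoskeleton, protein synthesis, glycolysis and protein folding. Their promoters are usually rich in CpG and lie in open chromatin, with acetylated nucleosomes on the sides of a nucleosome-poor start site. Polycomb marks are typically found at silenced developmental genes and not at such promoters.

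Promoter sequence is shown for the members found in most H3K27ac lists, HSPA8 and EEF1A1, and for those found in fewest, EEF2 and PKM. Each sequence is the 250 bases before the start in RefSeq on GRCh38.p14, read 5′ to 3′ on the gene's strand, which was minus for all 4. Capitals mark matches, on either strand, to the GC box GGGCGG, the CCAAT box CCAAT, the TATA box TATAAA or the heat shock element GAANNTTC. HSPA8 lies at chr11:123062137-123062386, EEF1A1 at chr6:73521033-73521282, EEF2 at chr19:3985464-3985713 and PKM at chr15:72231191-72231440.
HSPA8: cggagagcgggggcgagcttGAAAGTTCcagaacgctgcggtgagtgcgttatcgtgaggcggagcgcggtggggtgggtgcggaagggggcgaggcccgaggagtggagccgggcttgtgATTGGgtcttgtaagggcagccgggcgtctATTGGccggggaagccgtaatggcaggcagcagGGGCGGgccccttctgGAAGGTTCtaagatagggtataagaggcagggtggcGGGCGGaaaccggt
EEF1A1: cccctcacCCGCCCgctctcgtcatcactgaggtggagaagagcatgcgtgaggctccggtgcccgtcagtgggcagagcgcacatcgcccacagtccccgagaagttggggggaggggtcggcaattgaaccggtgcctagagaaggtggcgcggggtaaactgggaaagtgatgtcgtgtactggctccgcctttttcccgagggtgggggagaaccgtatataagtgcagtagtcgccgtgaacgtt
EEF2: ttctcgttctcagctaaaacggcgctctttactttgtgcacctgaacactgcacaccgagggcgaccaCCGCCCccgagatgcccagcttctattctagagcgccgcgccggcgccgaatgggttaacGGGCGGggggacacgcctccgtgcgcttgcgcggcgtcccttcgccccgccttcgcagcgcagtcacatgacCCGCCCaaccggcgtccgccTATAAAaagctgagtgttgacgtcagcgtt
PKM: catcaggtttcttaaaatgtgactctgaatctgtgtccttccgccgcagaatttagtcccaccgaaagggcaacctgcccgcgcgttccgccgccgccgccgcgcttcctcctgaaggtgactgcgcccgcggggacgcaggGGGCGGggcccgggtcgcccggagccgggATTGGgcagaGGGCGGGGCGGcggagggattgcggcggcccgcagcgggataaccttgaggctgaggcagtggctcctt

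Of the 10 genes, 9 had a promoter in the RefSeq table and ACTB was not matched. LDHA and NPM1 had 2 entries each. HSPA8 held 2 GC boxes, 2 CCAAT boxes and 2 heat shock elements. EEF1A1 held 1 GC box. EEF2 held 3 GC boxes and 1 TATA box, and PKM held 3 GC boxes, of which a pair overlapped, and 1 CCAAT box. Only matches to the exact letters given above were counted, so a motif with other letters, such as gtatataag in EEF1A1, was not. Among all 35116 RefSeq promoters of this length, 42.6% held a GC box, 32% a CCAAT box, 10.7% a TATA box and 5.78% a heat shock element. The GC content was 65.6% for HSPA8, 61.6% for EEF1A1, 63.6% for EEF2 and 68.4% for PKM, against a median of 58% over all promoters. CpG dinucleotides numbered 22, 20, 31 and 28 in the same order, against a median of 11. GC content and CpG number were thus above the median in the promoters found most often and in those found least often.

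The first question was whether each promoter was found with H3K27ac antibodies. SEACR, the peak caller used for all 30 libraries, placed a peak at 165 of 250 combinations of promoter and H3K27ac list, or 66%, while 1.27% of all windows held a peak over the same lists. HSPA8, a constitutive chaperone of the Hsp70 family, was found in 24 of 25 lists. So was EEF1A1, the elongation factor that brings aminoacyl-tRNA to the ribosome, and in the same lists. ACTB, which encodes beta-actin, and NPM1, which encodes a nucleolar histone chaperone, were found in 22 lists each. The glycolytic genes GAPDH and LDHA were found in 20 each.

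The remaining 4 members were found less often. TUBA1B, an alpha-tubulin gene, was found in 14 of 25 lists, and RPLP0, a protein of the large ribosomal subunit's stalk, in 12. EEF2, the factor that moves the ribosome along the mRNA, was found in 4, and PKM, which encodes pyruvate kinase, in 3. No member was found in all 25 lists. Among the 47525 windows with a peak in at least 1 H3K27ac list, 1.55% had one in at least 24 lists, 4.82% in at least 20 and 14.8% in at least 12, against 2, 6 and 8 of the 10 promoters. These windows are not limited to promoters, and the share of other promoters found this often was not computed.

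Neighbours in this order were often close. ACTB and NPM1 each had 1 list that the other lacked, and GAPDH and LDHA each had 4. TUBA1B had a peak without RPLP0 in 5 lists, and RPLP0 without TUBA1B in 3. RPLP0 had a peak without EEF2 in 9 lists, and EEF2 without RPLP0 in 1. The last of these gaps was the widest between neighbours, followed by that of LDHA and TUBA1B, with 7 lists holding LDHA alone and 1 holding TUBA1B alone.

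The lists differed in how many members they held. The Diagenode 1/50 list without TSA at 15 cycles held all 10, while 2.5% of windows held a peak in it. Its EEF2 peak ranked 11779 of 11844 by total signal, and its RPLP0 peak had its maximum 5900 bp downstream of the start. The Active Motif SDS list at 13 cycles stood apart: it held 3 members, EEF2, GAPDH and LDHA, beside 0.85% of windows, and was the only H3K27ac list without HSPA8 and EEF1A1. Without it, 162 of 240 combinations held a peak, or 67.5%. The Diagenode column list at 13 cycles also held 3, beside 0.539% of windows, and the Active Motif list at 15 cycles held 4, beside 0.471%. Peak numbers were 6070, 3761 and 3024 in those 3 lists, within a range of 3024 to 22808 over all H3K27ac lists, and the part of list length in detection was not tested.

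Strength was read as a percentile, the share of peaks in the same list whose total signal, as the authors' caller wrote it, was no higher. Percentiles from lists of different lengths are set side by side and show no change between them. Over the lists with a peak, EEF1A1 ranged from 30.0 to 98.5 with a median of 90.4. HSPA8 ranged from 67.2 to 97.6 with a median of 89.1, and its lowest value was above the lowest of every other member. ACTB had a median of 88.6 and a range of 2.52 to 95.7, the widest of the 4 members found most often. Its 95.7, with ab177178 SDS at 11 cycles, came from a peak with its maximum outside the window, at -2513 bp. The same holds for the EEF1A1 value of 98.2 with ab177178 column at 13 cycles, at -2844 bp. A percentile of at least 90 was reached by EEF1A1 in 12 lists, by HSPA8 in 11, by ACTB in 10 and by NPM1 in 5.

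The median percentile was 84.4 for NPM1, 73.4 for LDHA and 71.5 for GAPDH, so these promoters usually lay in the upper part of a list. It was 55.2 for RPLP0, 47.2 for TUBA1B, 43.7 for PKM and 27.7 for EEF2. RPLP0 reached 94.8 with ab4729 and 95.2 with Diagenode 1/50, both without TSA at 15 cycles, and its other 10 values lay between 31.8 and 73.1. LDHA and GAPDH each had lists in which they were among the weakest peaks, at 2.27 with ab4729 SDS at 13 cycles and at 1.27 with ab177178 column at 13 cycles.

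**Figure D1:**
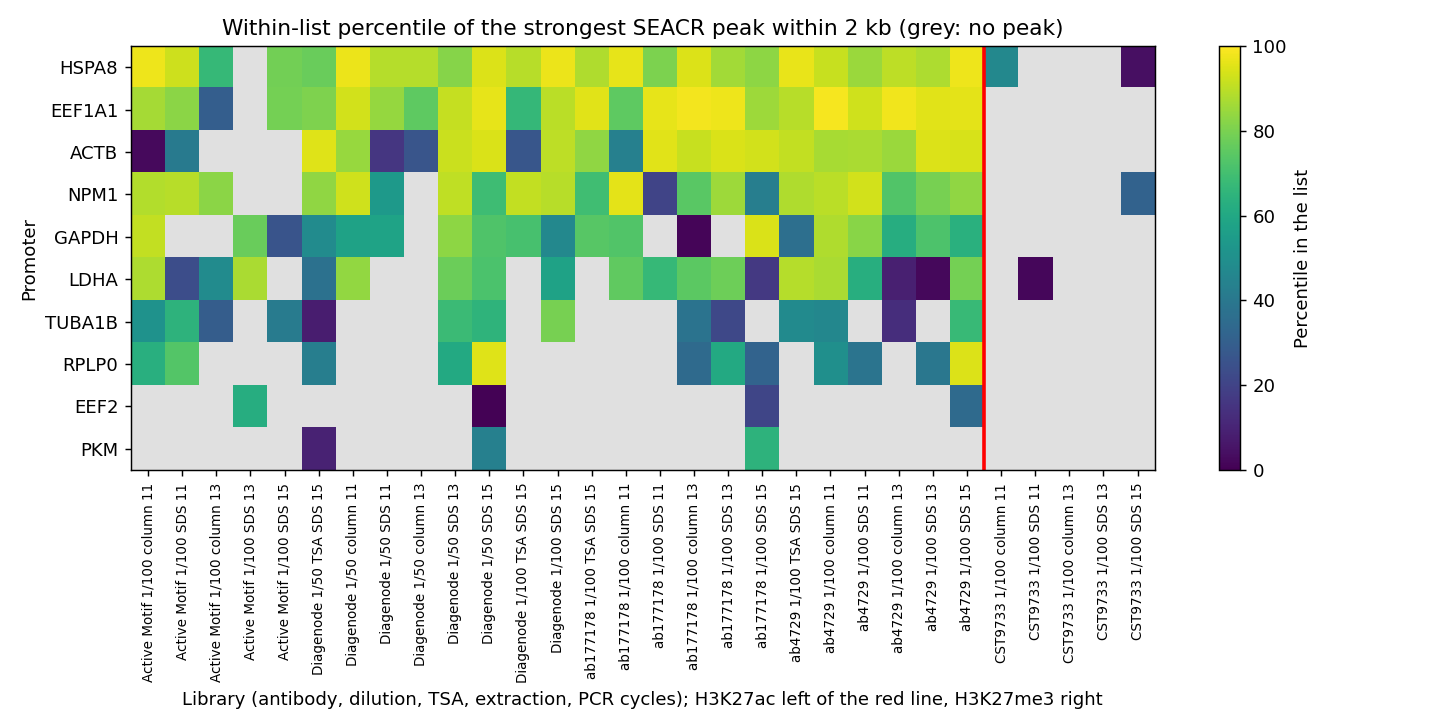
Percentile of the strongest SEACR peak at each promoter (rows, in order of detection) in each of 30 lists (columns, H3K27ac left and H3K27me3 right of the red line); grey means no peak. HSPA8 and EEF1A1 are coloured in 24 of 25 H3K27ac columns, EEF2 in 4 and PKM in 3, and the H3K27me3 columns hold 4 coloured cells.

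Peak width did not follow the order of detection in all members. The median width of the strongest peak was 2027 bp for ACTB, 1876 bp for HSPA8, 1756.5 bp for EEF1A1 and 1522 bp for NPM1. It was 1368.5 bp for LDHA, 1283.5 bp for GAPDH, 1112.5 bp for RPLP0 and 1043.5 bp for TUBA1B. The least often found members broke the order, with medians of 2023 bp for PKM over 3 lists and 1467 bp for EEF2 over 4. These medians cover unlike sets of lists, since all PKM peaks and 3 of the 4 EEF2 peaks came from 15-cycle lists. In the 15-cycle lists without TSA the median was 2763.5 bp for PKM and 1812 bp for EEF2. There it was 4255.5 bp for ACTB and 1578.5 bp for NPM1, each over 4 lists, and 3214 bp for EEF1A1 and 2720 bp for HSPA8, each over 5. The sets were thus still unlike, since only EEF1A1 and HSPA8 of these had a peak in the Active Motif list. Over the 4 lists without Active Motif it was 4762 bp for EEF1A1, 4255.5 bp for ACTB, 3194.5 bp for HSPA8 and 1578.5 bp for NPM1. The widest peak at any member was the RPLP0 peak of 9830 bp with Diagenode 1/50, and the next was the RPLP0 peak of 9624 bp with ab4729. In the other 10 lists the RPLP0 peak was between 669 and 1214 bp.

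The signal maximum, the stretch that SEACR reports as highest within a peak, did not sit at the start in most of these promoters. Positions are given from the start, negative upstream. HSPA8 had its maximum upstream in 24 of 24 lists, with a median of -612.5 bp and a range of -1380 to -30 bp. EEF1A1 had it upstream in 23 of 24, median -567 bp, and ACTB in 19 of 22, median -667 bp. For NPM1 it lay upstream in 18 of 22 lists and closer to the start, median -185 bp.

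GAPDH had the most distant median, -1442 bp, with the maximum upstream in 19 of 20 lists, although single lists of EEF1A1 and ACTB reached farther, to -2844 and -2513 bp. A peak covered the GAPDH start base in only 10 of its 20 lists, against 21 of 22 for NPM1 and 21 of 24 for EEF1A1. No hg19 gene annotation was used, so the upstream signal was not assigned to GAPDH or to a neighbouring gene. LDHA, TUBA1B and RPLP0 had medians just inside the gene, at 55, 110.5 and 60.5 bp, with the maximum downstream in 14 of 20, 8 of 14 and 8 of 12 lists. The wide RPLP0 peaks had their maxima at 5900 bp with Diagenode 1/50 and at 6037 bp with ab4729, outside the promoter window, so their percentiles are not those of the RPLP0 start. MACS2 summits in the same libraries lay at 4 and -18 bp.

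**Figure D2:**
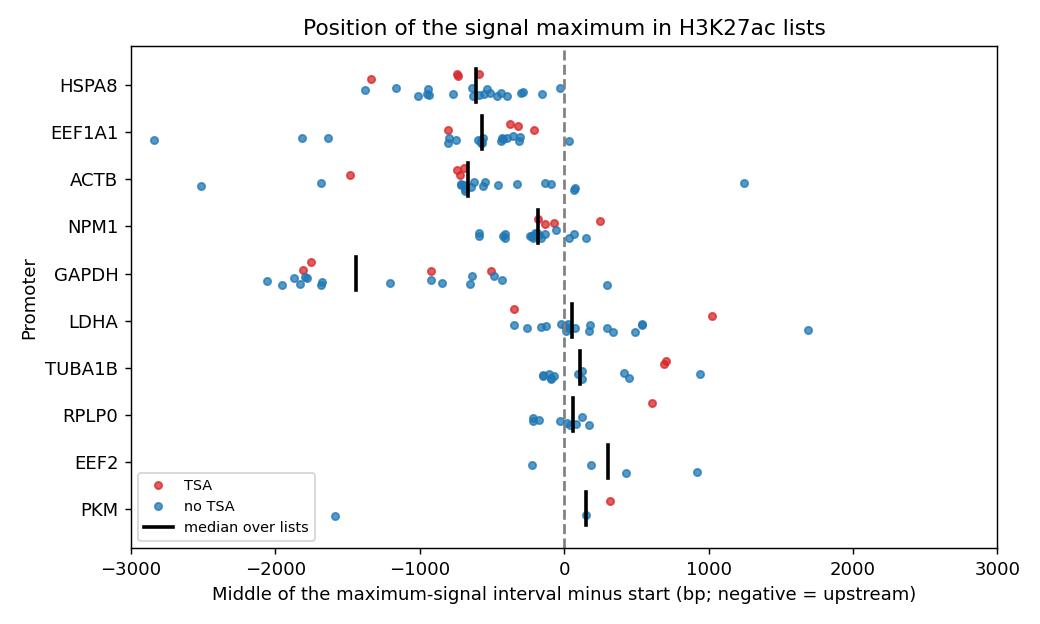
Position of the SEACR signal maximum relative to the start (x axis, bp, negative upstream) in each H3K27ac list with a peak, with TSA in red and without in blue; the bar is the median, and 2 RPLP0 points at 5900 and 6037 bp are outside the axis. HSPA8 points all lie upstream, and the GAPDH median lies farthest from the start.

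The peaks nearest to the limit of the window show how the rule acted. Just inside, the closest edge of a GAPDH peak lay 1589 bp from the start with Active Motif at 15 cycles, that of another GAPDH peak 1453 bp with ab177178 column at 11 cycles, and that of an EEF1A1 peak 1409 bp with Active Motif column at 13 cycles. Just outside, a PKM peak lay 2015 bp away with Diagenode 1/100 without TSA, and an RPLP0 peak 2155 bp away with Active Motif column at 13 cycles. In the 3 lists with no NPM1 peak, the nearest peak was between 617937 and 1055450 bp away.

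The second comparison set the marks against each other. H3K27me3 lists held a peak at 4 of 50 combinations, or 8%, while 8.28% of all windows held one over the same 5 lists, so the count lay near the background. HSPA8 had a peak of 467 bp at percentile 46.7 in the column list at 11 cycles and of 663 bp at percentile 4.24 in the SDS list at 15 cycles. NPM1 had a peak of 690 bp at percentile 31.5 in that 15-cycle list. LDHA had a peak of 474 bp at percentile 1.81 in the SDS list at 11 cycles, and both 13-cycle lists held none of the 10. Both H3K27me3 peaks at HSPA8 were narrower than its narrowest H3K27ac peak of 810 bp, while the one at NPM1 was not, beside a narrowest H3K27ac peak of 579 bp.

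Detection was tested over the 21 H3K27ac and 5 H3K27me3 lists without TSA with a two-sided Fisher exact test in each window, adjusted by Benjamini-Hochberg over 151078 windows. Of the 10 promoters, 6 were found more often with H3K27ac, against 2.1% of windows tested, and none more often with H3K27me3, against 35.9%. EEF1A1 was found in 20 of 21 H3K27ac lists and 0 of 5 H3K27me3 lists (Fisher exact test, adjusted p = 0.000596). ACTB was found in 18 and 0 (exact test, adjusted p = 0.00337) and GAPDH in 16 and 0 (exact test, adjusted p = 0.0105). These 3 had no H3K27me3 peak in any list.

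LDHA and NPM1 were each found in 18 H3K27ac lists and 1 H3K27me3 list (exact test, adjusted p = 0.028). HSPA8 was found in 20 and 2 (exact test, adjusted p = 0.0379). The difference did not pass for TUBA1B, found in 12 and 0 (exact test, adjusted p = 0.0801), or RPLP0, found in 11 and 0 (exact test, adjusted p = 0.0986). It did not pass for EEF2, found in 4 and 0 (exact test, adjusted p = 0.637), or PKM, found in 2 and 0 (exact test, adjusted p = 1). Without ab177178, and likewise without ab4729, 3 promoters passed, ACTB, EEF1A1 and GAPDH. Without the H3K27me3 column list at 11 cycles, 4 passed, and LDHA and NPM1 did not.

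The third comparison asked what TSA did at these promoters in 4 pairs of libraries matched on antibody and dilution. A peak was present in 26 of 40 combinations with TSA and in 35 of 40 without, while 1.48% of windows with TSA and 2.42% without held one. No promoter had a peak with TSA that was missing without it. Over all windows with a peak under TSA, the share with none without it was 34.9% for ab177178, 46.9% for ab4729, 22.2% for Diagenode 1/100 and 5.58% for Diagenode 1/50. With ab177178, 5 promoters were found with TSA and 9 without. The 4 that had a peak only without TSA were EEF2, RPLP0, PKM and LDHA. In that pair 76.3% of windows with a peak without TSA had none with it.

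With ab4729, 7 promoters were found with TSA and 9 without, the difference being EEF2 and RPLP0, and the share of windows without a peak under TSA was 44.6%. With Diagenode 1/100, 5 were found with TSA and 7 without, the difference being TUBA1B and LDHA, against 58.1% of windows. With Diagenode 1/50, 9 were found with TSA and 10 without, the difference being EEF2, against 63% of windows. EEF2 was thus the member absent most often under TSA where it had a peak without it, in 3 of 3 pairs. Those peaks without TSA were weak in their lists, at percentile 20.7 with ab177178, 34.7 with ab4729 and 0.549 with Diagenode 1/50. MACS2 found none of them. A peak covered the start base in 16 of 40 combinations with TSA and in 32 of 40 without. How often a fixed base was covered over all windows was not computed, so this difference is not read as particular to these promoters. Both counts are out of all combinations, of which 26 with TSA and 35 without held a peak. At TUBA1B the start was covered in 0 of 2 peaks with TSA and 3 of 3 without. At EEF1A1 and NPM1 it was covered in 4 of 4 lists both with TSA and without.

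Among the 5 promoters with a peak in all 8 lists, the strongest peak of 3 was narrower with TSA in 4 of 4 pairs, against 62.8% of 2113 windows with a peak in all 8 lists. No exact sign-flip permutation test over 4 pairs can go below p = 0.125, so none is given. Widths below are in the order ab177178, ab4729, Diagenode 1/100 and Diagenode 1/50. EEF1A1 peaks were 1604, 1467, 1479 and 1672 bp with TSA, against 3214, 6643, 1841 and 6310 bp without, a mean log2 ratio of -1.35 ± 0.86 (SD, n = 4 pairs). By this width the EEF1A1 groups did not overlap, and the share of all windows with such a separation was not computed. EEF1A1 was split into more than 1 peak in 3 of the 4 lists with TSA, and by covered bases it had 2305, 2446, 1875 and 1672 bp with TSA, against 3612, 4001, 1841 and 4001 bp without. Those groups overlapped, and covered bases were fewer with TSA in 3 of 4 pairs, so EEF1A1 did not move one way in all pairs by that measure.

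ACTB peaks were 1200, 2414, 860 and 3223 bp with TSA, against 2972, 5539, 2426 and 5696 bp without, a mean log2 ratio of -1.21 ± 0.28. HSPA8 peaks were 1363, 2582, 1877 and 1484 bp with TSA, against 1697, 6854, 2720 and 3669 bp without, a mean log2 ratio of -0.89 ± 0.55. For ACTB and HSPA8 the groups overlapped, while each pair had the narrower peak with TSA. The median of this mean log2 ratio over the 2108 background windows was -1.07. In the same order of pairs, the maximum signal at ACTB was 7, 9, 6 and 14 with TSA, against 11, 42, 9 and 37 without. These lists were not said to be downsampled and their read depth is unknown. The part of depth in these widths was not tested.

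GAPDH and NPM1 did not move one way in all pairs. GAPDH peaks were 1196, 1165, 1530 and 569 bp with TSA, against 3143, 4119, 1240 and 4278 bp without, narrower in 3 of 4 pairs, with a mean log2 ratio of -1.46 ± 1.34. NPM1 peaks were 662, 1631, 1926 and 1702 bp with TSA, against 1556, 2818, 1601 and 1488 bp without, narrower in 2 of 4 pairs, with a mean log2 ratio of -0.39 ± 0.74. Among these 5, NPM1 was the promoter whose Diagenode peaks were wider with TSA at both dilutions.

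Counting instead the bases of the window under any peak, which needs no peak in every list, 4 of 10 promoters had fewer with TSA in 4 of 4 pairs, against 9.91% of 42808 windows, and none had more in all pairs, against 0.0117%. Those with fewer were ACTB, GAPDH, LDHA and HSPA8. GAPDH had 1196, 1165, 1170 and 1735 covered bases with TSA, against 2779, 3450, 2105 and 3450 without, a mean difference of -1630 ± 554 bp (SD, n = 4 pairs). The GAPDH groups did not overlap, and how many of all windows had groups apart in this way was not computed. LDHA had 0, 1330, 0 and 1451 covered bases with TSA, against 1408, 3618, 1118 and 2493 without, and its groups overlapped. Only a window with a peak in all 4 lists without TSA can be lower in every pair. ACTB, EEF1A1, GAPDH, LDHA, HSPA8 and NPM1 met this, while the 42808 windows include many with a peak in a few lists only. The promoter count and the window share are therefore not on the same footing.

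**Figure D3:**
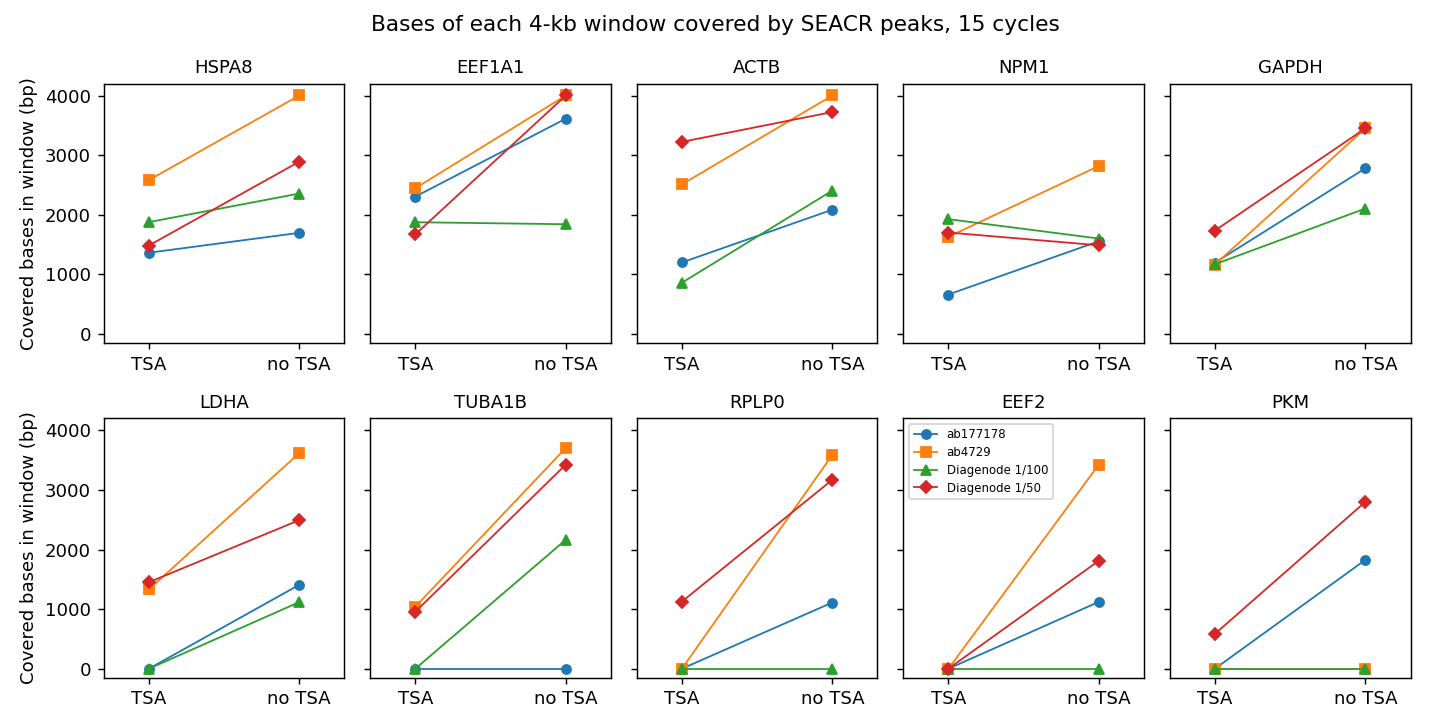
Bases of each 4-kb window covered by SEACR peaks (y axis, bp) in matched libraries with TSA (left) and without TSA (right), 1 line per antibody condition. Lines for ACTB, GAPDH, LDHA and HSPA8 are all lower on the left, and 2 NPM1 lines are higher on the left.

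The next comparisons used the 16 downsampled H3K27ac lists. For extraction, a peak was present in 51 of 80 combinations with the column and 49 of 80 with SDS, while 0.974% and 0.996% of windows held one. For cycle number, it was present in 48 of 80 at 13 cycles and 52 of 80 at 11 cycles, while 0.926% and 1.04% of windows held one. Column libraries held 23 of 40 at 13 cycles and 28 of 40 at 11, while 0.797% and 1.15% of windows held a peak. SDS libraries held 25 of 40 at 13 cycles and 24 of 40 at 11, while 1.05% and 0.937% of windows held one. PKM had no peak in any downsampled list, and EEF2 had 1, in the Active Motif SDS list at 13 cycles.

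Width could be compared only where all 16 lists had a peak, which no promoter met, since the Active Motif SDS list at 13 cycles lacked the 2 most often found. Among the 531 windows that met it, 0 passed for extraction and 0 for cycle number by exact two-sided sign-flip permutation tests over 8 pairs with Benjamini-Hochberg adjustment, and 21 and 52 had an unadjusted p under 0.05. The smallest p such a test allows is 0.00781. Without Active Motif, ACTB, EEF1A1 and HSPA8 had a peak in every list, as did 831 windows in all. The 6 pairs left allow no exact permutation p below 0.0312, so hardly any window could pass after adjustment, and nothing is read from the absence of calls there.

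Covered bases could be tested for 9 promoters among 27216 windows, and again 0 windows passed for extraction and 0 for cycle number, with 187 and 397 at an unadjusted p under 0.05. With 0.00781 as the smallest p, few windows could pass an adjustment over so many, so these counts do not show an absence of differences. HSPA8 came closest for extraction, with 485 ± 557 bp more with the column than with SDS over 8 pairs and more in 6 of 8 (exact sign-flip permutation test, p = 0.0547, adjusted p = 1). For cycle number, HSPA8 had the smallest p among the members, with a difference of -528 ± 802 bp at 13 against 11 cycles (exact sign-flip permutation test, p = 0.0859, adjusted p = 1). The SDs exceed both of these means over 8 pairs. In column libraries HSPA8 had -630 ± 188 bp at 13 against 11 cycles and NPM1 -558 ± 455 bp (SD, n = 4 pairs), each lower at 13 cycles in 4 of 4 pairs, as were 2.88% of 20941 windows with a peak in at least 1 of those lists. Only a window with a peak in all 4 column lists at 11 cycles can be lower in every pair, and the 20941 were not limited to these. ACTB, EEF1A1, GAPDH and LDHA also had a peak in all 4, and were lower in 2, 2, 3 and 3 of 4 pairs. In SDS libraries HSPA8 had -426 ± 1200 bp and NPM1 -229 ± 1315 bp, each lower in 2 of 4 pairs. The difference between extraction methods was not tested, and 4 pairs allow no exact permutation p below 0.125.

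Antibodies were compared over the same 16 lists, 4 protocols each. Promoters were found in 29 of 40 combinations with ab4729, 26 with ab177178, 23 with Active Motif and 22 with Diagenode, while 0.973%, 1.37%, 0.786% and 0.807% of windows held a peak in that order. ab4729 thus held more of the promoters than ab177178 in lists that reached fewer windows. EEF1A1 had 2988 ± 661 covered bases with ab4729 (SD, n = 4 protocols), 2216 ± 771 with ab177178, 1581 ± 565 with Diagenode and 799.8 ± 647 with Active Motif. With ab4729 the lowest EEF1A1 value was 2353 bp, above the highest with Diagenode, 2163 bp, and with Active Motif, 1485 bp.

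ACTB had 2193 ± 244 covered bases with ab4729, 1987 ± 581 with ab177178, 1794 ± 903 with Diagenode and 414 ± 508 with Active Motif. Its highest Active Motif value, 1038 bp, was below its lowest with ab4729, 1842 bp, and with ab177178, 1513 bp. How often antibody ranges lay apart over all windows, as here and at EEF1A1, was not computed. GAPDH had 2170 ± 831 with ab4729, 353.5 ± 428 with ab177178, 899 ± 713 with Diagenode and 765.5 ± 1061 with Active Motif. LDHA, by contrast, had 1195 ± 470 with Active Motif and a peak in 4 of 4 of its lists, and 692 ± 806 with Diagenode and a peak in 2 of 4.

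An exact permutation of antibody labels within protocols gave p = 0.0108 for EEF1A1 (adjusted p = 0.734), p = 0.0161 for ACTB (adjusted p = 0.746) and p = 0.0532 for GAPDH (adjusted p = 0.795). No window of the 27216 passed, with 1384 at an unadjusted p under 0.05. By width, 0 of 531 windows passed, with 72 at an unadjusted p under 0.05. This test has little power where 1 antibody stands apart from 3 like ones: its p then falls anywhere up to about 0.0156, however large the shift, and the smallest p it allows in any case is 7.23e-05. A count of 0 here therefore does not show that the antibodies gave like widths.

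**Figure D4:**
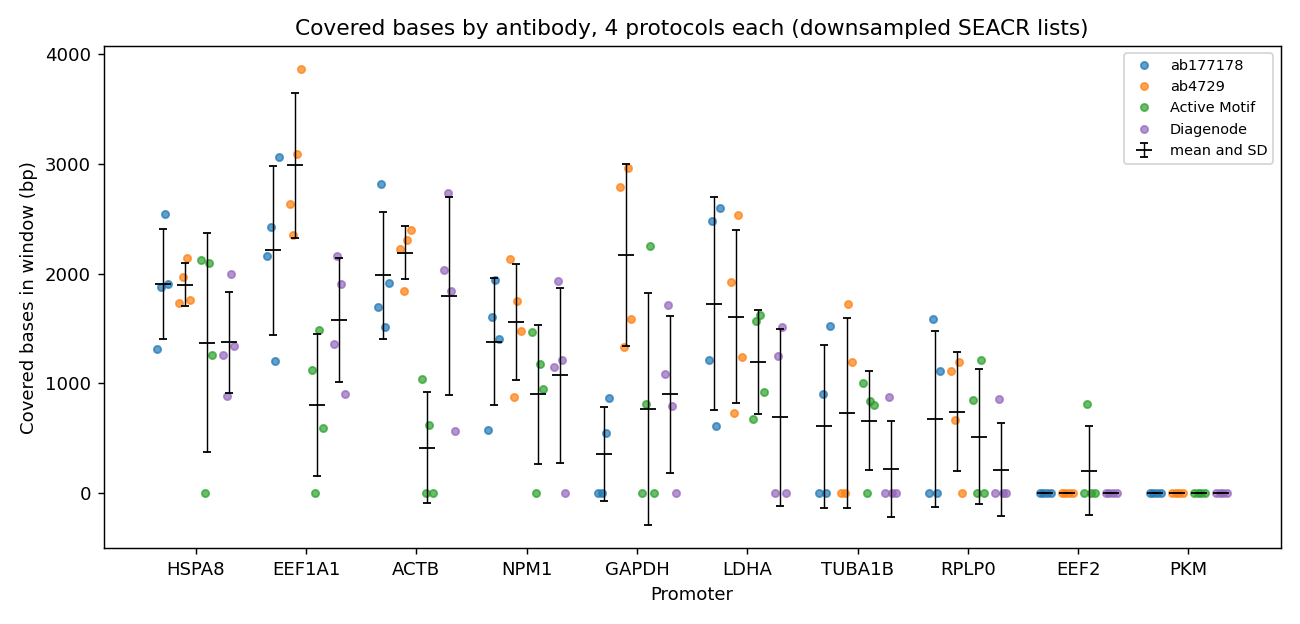
Covered bases of each 4-kb window (y axis, bp) in the 16 downsampled H3K27ac lists by antibody, with each of the 4 protocols as a point and the mean and SD in black. The Active Motif mean is lowest for EEF1A1 and ACTB, ab4729 points reach highest for EEF1A1 and GAPDH, and PKM is at 0 throughout.

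Dilution could be set side by side for Diagenode at 15 cycles, with 1 library each. Without TSA, 10 promoters were found at 1/50 and 7 at 1/100, the difference being EEF2, RPLP0 and PKM, while 2.5% and 1.34% of windows held a peak. With TSA, 9 were found at 1/50 and 5 at 1/100, while 0.979% and 0.72% of windows held one. Without TSA the EEF1A1 peak was 6310 bp at 1/50 and 1841 bp at 1/100, and the ACTB peak 5696 bp and 2426 bp at the same dilutions. NPM1 ran the other way, with 1488 bp at 1/50 and 1601 bp at 1/100. These differences have no replicate check. Read depth is unknown for these libraries, and its part in the differences was not tested.

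The last comparison was between peak callers on the 5 H3K27ac libraries without TSA at 15 cycles. MACS2 placed a peak at 29 of 50 combinations and SEACR at 39, and every combination found by MACS2 was also found by SEACR. With ab177178, MACS2 found 3 promoters, ACTB, GAPDH and HSPA8, and SEACR found 9, while 1.26% of windows held a MACS2 peak and 2.73% a SEACR peak. With ab4729, MACS2 found 8 and SEACR 9, although MACS2 reached 3.38% of windows and SEACR 3.1%. With Diagenode 1/50, MACS2 found 9 and SEACR 10, beside 2.59% and 2.5% of windows.

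In both of the last libraries the promoter found by SEACR alone was EEF2, which MACS2 did not find in any library. With Diagenode 1/100 both callers found the same 7, beside 0.957% of windows by MACS2 and 1.34% by SEACR. With Active Motif, MACS2 found EEF1A1 and HSPA8 and SEACR found 4, beside 0.302% and 0.471% of windows. In the H3K27me3 library at 15 cycles both callers found HSPA8 and NPM1, 2 of 10, beside 12.9% of windows by MACS2 and 12.1% by SEACR.

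Windows found by 1 caller alone ran in both directions. Of windows with a MACS2 peak, 6.69% with ab177178, 24.8% with ab4729, 15.3% with Active Motif, 11% with Diagenode 1/100 and 21.5% with Diagenode 1/50 had no SEACR peak. Of windows with a SEACR peak, 56.7%, 18.1%, 45.7%, 36.3% and 18.5% in the same order had no MACS2 peak. In the H3K27me3 library the share was 12.9% of MACS2 windows and 7.17% of SEACR windows.

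HSPA8 was the promoter with a peak by both callers in all 5 libraries. In the order ab177178, ab4729, Active Motif, Diagenode 1/100 and Diagenode 1/50, its peak was 695, 3285, 436, 1571 and 2647 bp by MACS2, against 1697, 6854, 963, 2720 and 3669 bp by SEACR. It was narrower by MACS2 in 5 of 5 libraries, as were 96.7% of 884 windows with peaks by both callers in all 5. The mean log2 ratio was -0.95 ± 0.32 (SD, n = 5), and an exact sign-flip permutation test over 5 libraries cannot go below p = 0.0625. The MACS2 summits at HSPA8 lay upstream in every library, between -1163 and -530 bp, close to the SEACR maxima. At ACTB they lay at -1686 bp with ab177178, -690 bp with ab4729, -699 bp with Diagenode 1/100 and -690 bp with Diagenode 1/50.

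**Figure D5:**
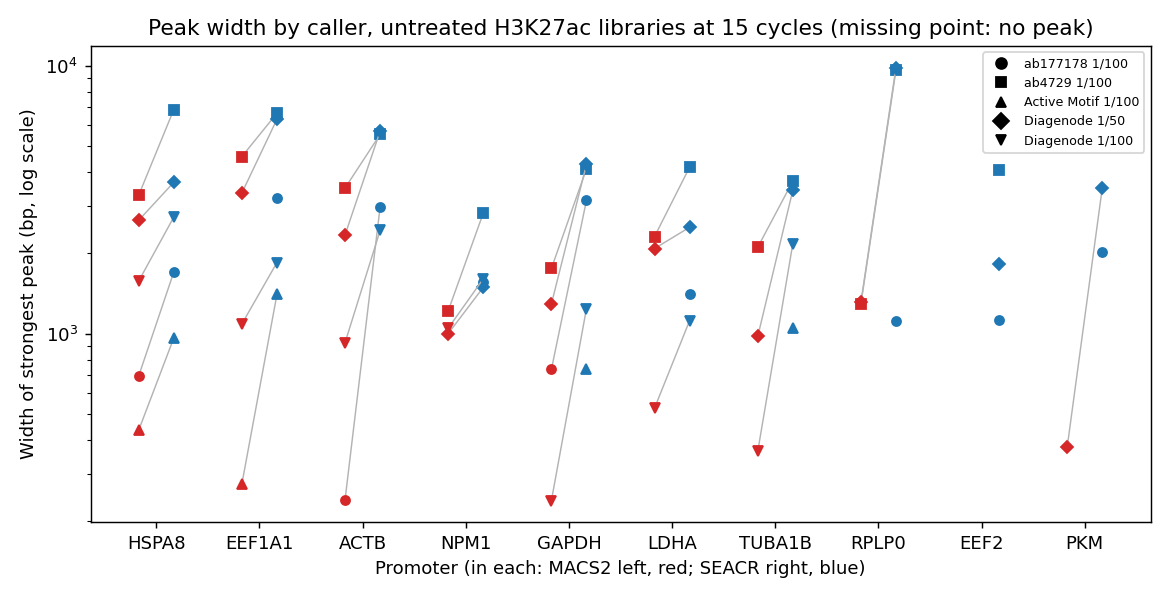
Width of the strongest peak at each promoter (y axis, bp, log scale) by MACS2 (left, red) and SEACR (right, blue) in the 5 H3K27ac libraries without TSA at 15 cycles, joined by library. At HSPA8 the MACS2 point lies below the SEACR point in all 5 libraries, and EEF2 has SEACR points only.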

How the data were processed

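The data were peak lists of 30 CUT&Tag libraries on hg19. Per the submitters' processing notes, the tools were MACS2, SEACR, bedtools 2.25.0, SAMtools 1.3.1, Picard 2.6.0, Bowtie2 2.2.9, Trim Galore 0.6.6 and bcl2fastq, with no role or order given. Duplicates were removed and peaks called per library, per the labels. Neither read depth per library nor SEACR settings are given in the sources used, and the depth behind each peak is unknown. In the 30 deposited SEACR lists, the total signal and the maximum signal of a peak are the authors' values. The 6 deposited MACS2 lists hold a score and a fold enrichment ratio, left out here, and −log10 p and −log10 q, of which the authors' −log10 q ranked peaks.

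Only peaks on chromosomes 1 to 22 and X entered. Each start was given 2 kb either side, and the genome was tiled in windows of the same length. A peak belonged to a window when they shared at least 1 bp, and the strongest stood for the window. The 10 members, the lists and the tests were chosen with earlier results of these data known, and all 10 members are named. The tests are those named beside each result, called at an adjusted p under 0.05, and the overlap and test code was tested on simulated data. Alternatives covered the window, peak strength, merging of peaks, covered bases, the antibodies and libraries included and the caller. Promoter sequences came from RefSeq on GRCh38.p14, and no coordinates were converted. The software was scipy 1.17.1, pandas 2.3.3, numpy 2.4.6 and matplotlib 3.10.9 under Python 3.11.15.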

Additional observations from a re-analysis of the deposited data

How the results depend on the processing

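Detection in H3K27ac lists was 159 of 250 with 1 kb either side of the start, 169 with 5 kb, 128 where a peak had to cover the start base and 122 with only the strongest peaks of each list. In the libraries that also have a MACS2 list it was 29 of 50 by MACS2 and 39 of 50 by SEACR, the second a setting chosen after seeing the data, as was leaving out the Active Motif SDS library at 13 cycles. The 4 H3K27me3 peaks became 2 where a peak had to cover the start, 2 of 10 by MACS2 and 2 of 10 by SEACR in the library that has both, and 0 with only the strongest peaks. The 6 promoters that passed between marks became 3 without ab177178 and 3 without ab4729, and lay between 4 and 6 in the other settings. EEF1A1 and ACTB passed in all 10 settings, with adjusted p up to 0.00521 and up to 0.04 (Fisher exact test), while LDHA did not pass in 5, and GAPDH, HSPA8 and NPM1 in 3 each. Without Diagenode, which leaves 2 pairs, all 5 promoters were narrower with TSA. The 62.8% of 2113 windows that were narrower in 4 of 4 pairs were so in these 2 as well. The count of promoters narrower by MACS2, 1 of 1 that could be compared, was 2 of 2 with 5 kb either side, 3 of 10 by covered bases, 2 of 2 without ab177178 and 3 of 3 without Active Motif. With only the strongest peaks it was 0 of 0, since no promoter could be compared. The counts of 0 for extraction, cycle number and antibody stayed 0 in every setting run, in most of which no promoter could be tested, and leaving out an antibody leaves 6 pairs, whose smallest exact permutation p is 0.0312. The cause of these changes was not tested. Shares of all windows under the changed settings are not given, so these counts show only how the promoter counts moved. Within 1 extraction or cycle number only 4 pairs remain, so no test was run there. The pairs above are matched on condition. By replicate number, which would give a replicate block, no paired analysis was possible because each condition had 1 library and the labels give no replicate numbers. Unknown read depth limits every absent peak: it means not called at this depth, not that the mark is absent.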
